A study of Mus musculus with 21 samples.

Results

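The prostates of castrated male mice given genistein were compared with those of castrated male mice given vehicle, with 3 arrays in each group, 6 of the 21 arrays in the series. All 6 arrays lie on 1 chip, and all probes detected on 3 or more of the 12 arrays of the genistein experiment (detection p-value below 0.05) were taken, 22332 of 45259. All males, 8 to 12 weeks old, were FVB/N heterozygous androgen reporter mice, in which a thymidine kinase promoter with androgen response elements (Slp-HRE2) drives luciferase. Genistein was injected under the skin at 300 µg per mouse per day, equal to 10 µg/g body weight, for 5 days from 4 days after castration. The vehicle was 0.1 ml of mineral oil with 2% dimethylsulfoxide, and prostates were taken 24 hours after the last dose. Intact males given vehicle or genistein in the same way, 3 arrays each on a second chip, stand beside them for reference. Whether each array came from 1 mouse or from several is not stated in the labels, so p-values cover only the spread among these arrays, which may be technical.

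Genistein is a soy isoflavone that binds estrogen receptors, estrogen receptor beta more tightly than alpha, and at high concentrations inhibits protein tyrosine kinases. In the mouse prostate, androgen keeps the luminal epithelium secreting. After castration the gland regresses, androgen-driven secretory transcripts such as that of probasin (Pbsn) decline, and other epithelial transcripts become prominent. Treating castrated males asks what genistein does to prostate transcripts when little testicular androgen is left, a question raised by the title of the series, which concerns tissue-specific effects of genistein on androgen receptor activity.

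The arrays were alike in depth, with 42.3% to 46.4% of probes detected on each of the 12, but the 3 genistein arrays of castrated males were not alike in content. On genistein array 1, 455 probes read at least 1 log2 from the mean of the vehicle arrays, on array 3, 280 did, and on array 2, 92 did. Each vehicle array set against the mean of the other 2 vehicle arrays had 73 to 103 such probes. The count for genistein array 2 lay within that span. The 2 counts are not on the same footing, because a mean of 2 arrays varies more than a mean of 3. The correlation of genistein array 2 with a vehicle array was 0.988 to 0.990 over kept probes, that of array 1 was 0.977 to 0.983 and that of array 3 was 0.981 to 0.986. On the chip the vehicle arrays hold positions A to C and the genistein arrays D to F, so treatment and chip position cannot be told apart. The luminal keratin Krt8 read 12.97, 12.98 and 12.89 on the vehicle arrays and 12.43, 12.70 and 12.45 on genistein arrays 1, 2 and 3. Pbsn read 4.92, 5.96 and 5.81 on the vehicle arrays and 5.89, 5.84 and 6.05 on genistein arrays 1, 2 and 3. It was dim but detected on every one of them. Msmb, another secretory protein gene, read 11.69 to 12.40 on the vehicle arrays and 11.93 to 13.05 on the genistein arrays. The share of other tissues in the samples was not tested.

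In the fit of all 12 arrays no probe passed an adjusted p of 0.05 (0%; limma, Benjamini-Hochberg over 22332 probes), and 2059 probes (9.22%) had an unadjusted p under 0.05. The lowest adjusted p, 0.0883, belonged to a probe of the potassium channel gene Kcnj15. That probe was detected on 3 of 3 vehicle arrays and on no genistein array, which puts it at least 1.55-fold lower with genistein. The brighter Kcnj15 probe read 6.64, 6.88 and 6.57 on the vehicle arrays and 5.30, 6.28 and 5.19 on genistein arrays 1, 2 and 3. All genistein values lie below all vehicle values there, with arrays 1 and 3 lowest. With genistein array 2 left out, 170 probes (0.761%) passed, 31 higher (0.139%) and 139 lower (0.622%). Array 2 was singled out because it had been seen to differ, so that fit describes arrays 1 and 3 and is no independent support.

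To separate what arrays 1 and 3 share from what all 3 share, each probe was sorted by the genistein arrays that read at least 1 log2 outside the range of the 3 vehicle arrays. The largest class of lower readings was that of arrays 1 and 3 only, with 83 probes (0.372%) of 60 genes with a symbol. Only 1 probe, of Cd52, was that low on all 3 arrays, and no probe was low on arrays 1 and 2 alone or on arrays 2 and 3 alone. Array 1 alone was low for 58 probes, array 3 alone for 16 and array 2 alone for 4. Among higher readings, 16 probes (0.0716%) of 9 genes with a symbol were high on arrays 1 and 3 only, 57 on array 1 alone, 14 on array 2 alone, 19 on array 3 alone, and none on all 3. In intact males, the largest class shared by 2 arrays was 25 probes high on arrays 2 and 3, and 3 probes were low on arrays 1 and 3. Of the 83 probes low on arrays 1 and 3, array 2 lay inside the vehicle range for 19 and below it for 64, by less than 1 log2, and above it for none. Their median difference from the vehicle mean was -2.18 on array 1, -0.45 on array 2 and -2.0 on array 3.

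**Figure D1:**
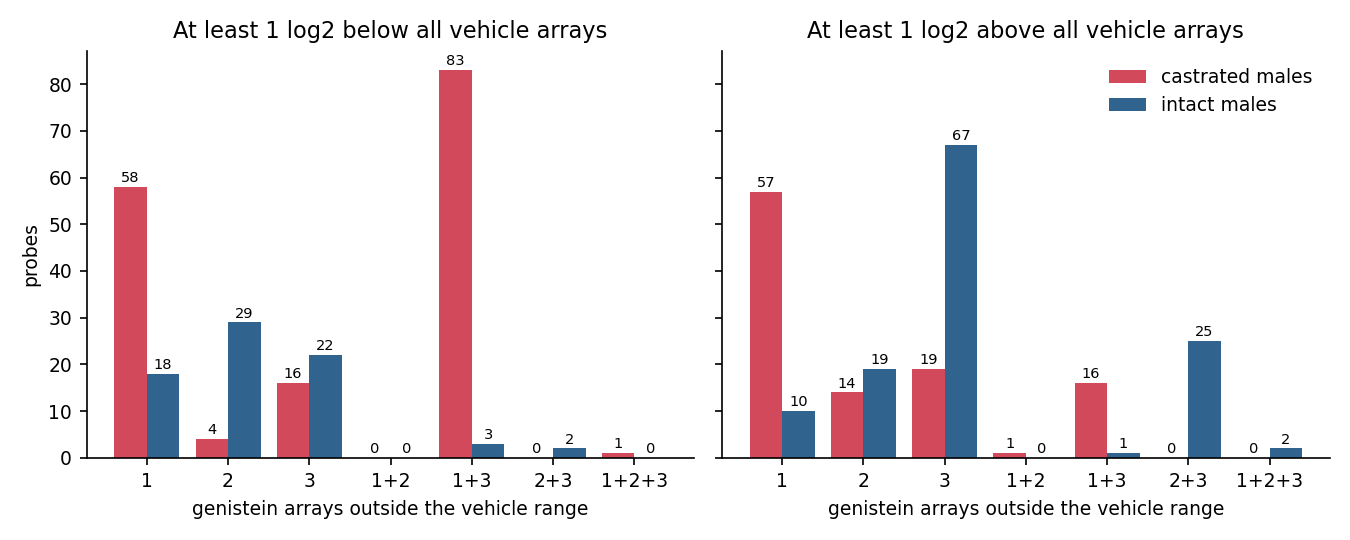
Number of probes (vertical axis) that read at least 1 log2 below (left) or above (right) all 3 vehicle arrays, by which of the 3 genistein arrays did so (horizontal axis), for castrated and intact males. In castrated males, 83 probes were low on arrays 1 and 3 only, against 3 in intact males.

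Transcripts of secreted male accessory gland proteins were among those with the largest differences. Svs2, Svs4 and Svs5 encode seminal vesicle secretory proteins of the copulatory plug and semen. Svs2 read 11.77, 11.91 and 11.53 on the vehicle arrays and 5.97, 11.17 and 4.65 on genistein arrays 1, 2 and 3. Arrays 1 and 3 lie far below the vehicle arrays, with the probe not detected on array 3, array 2 lies a little below them, and the groups do not overlap. The log2 difference was -4.47 (SE 1.15, limma adjusted p = 0.254), and -6.43 (SE 0.31, adjusted p = 2e-06) without genistein array 2. In intact males Svs2 read 13.33 ± 0.15 (SD, n = 3) with vehicle and 13.85 ± 0.27 (SD, n = 3) with genistein. Fewer cells of a type and less RNA per cell cannot be told apart in such whole-tissue samples.

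A second Svs2 probe showed the same arrangement, with a log2 difference of -2.20, but array 2 was within its vehicle range. Svs5 read 13.81, 14.34 and 13.87 on the vehicle arrays and 9.10, 13.45 and 6.86 on genistein arrays 1, 2 and 3, again with arrays 1 and 3 far below and array 2 just below the vehicle arrays. For Svs4 the values were 12.97, 15.31 and 12.94 on the vehicle arrays and 9.48, 12.96 and 7.78 on genistein arrays 1, 2 and 3. Here vehicle array 2 stands above the other vehicle arrays, and genistein array 2 falls inside the vehicle range. Svs6, of the same family, was detected on 2 vehicle arrays and on no genistein array, and vehicle array 2 read 9.53 against 5.15 and 4.79 on the others. The level with genistein was at least 3.06-fold lower, a bound that rests on vehicle array 2, with an adjusted p of 0.722 in limma. Over the 8 seminal vesicle transcripts tested, 1 lay above 0, and their summed linear intensity was 57862 to 102141 on the vehicle arrays, and 4524, 55738 and 1225 on genistein arrays 1, 2 and 3. Svs2, Svs4, Svs5 and Pate4 make up most of that sum on each of the 6 arrays. Of the other members, Svs1 read 4.48, 5.08 and 4.48 on the vehicle arrays and 4.31, 4.39 and 4.49 on genistein arrays 1, 2 and 3, and Ceacam10 4.35, 5.57 and 4.39 on the vehicle arrays and 4.36, 4.65 and 4.44 on genistein arrays 1, 2 and 3, each detected on 1 vehicle array and on no genistein array. The part of seminal vesicle RNA in the result was not tested.

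Pate6 and Pate4 belong to a cluster of genes for small secreted proteins of prostate, testis and epididymis on chromosome 9. Pate6 read 11.24, 11.33 and 11.16 on the vehicle arrays and 5.77, 11.22 and 4.38 on genistein arrays 1, 2 and 3. Array 2 is inside the vehicle range, array 1 is far below it, and on array 3 the probe was not detected. The difference was -4.12 (SE 1.20, limma adjusted p = 0.332), and -6.17 (SE 0.30, adjusted p = 2e-06) without array 2. The probe was not detected on any of the 6 intact arrays. Pate4 read 15.15, 15.14 and 14.96 on the vehicle arrays and 11.57, 15.06 and 9.5 on genistein arrays 1, 2 and 3, with the same order of arrays, but in intact males it was bright, at 14.77 ± 0.08 (SD, n = 3) with vehicle and 15.11 ± 0.15 (SD, n = 3) with genistein. Pate14 and Pate9, the other 2 of 4 family members tested, had log2 differences of -0.63 and -0.51 and did not set arrays 1 and 3 apart. In both, vehicle array 2 was the highest of the 6, at 12.38 and 11.54.

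The promoters of 5 genes low on arrays 1 and 3 are shown because they let a reader look for hormone response letters next to those transcripts. Each runs from 250 bases before to 50 bases after the start site (RefSeq, GRCm38.p6), 5′ to 3′ on the strand of the gene. Capitals mark 1 arm of the androgen response element, AGAACA, and the TATA box, TATAAA, on either strand.
Svs2, chr2:164238292-164238591, minus strand: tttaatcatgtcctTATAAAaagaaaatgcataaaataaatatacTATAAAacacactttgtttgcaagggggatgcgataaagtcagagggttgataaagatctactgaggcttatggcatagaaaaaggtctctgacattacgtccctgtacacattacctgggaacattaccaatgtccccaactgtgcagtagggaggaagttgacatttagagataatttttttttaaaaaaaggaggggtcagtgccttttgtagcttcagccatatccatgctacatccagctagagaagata
Svs5, chr2:164332515-164332814, plus strand: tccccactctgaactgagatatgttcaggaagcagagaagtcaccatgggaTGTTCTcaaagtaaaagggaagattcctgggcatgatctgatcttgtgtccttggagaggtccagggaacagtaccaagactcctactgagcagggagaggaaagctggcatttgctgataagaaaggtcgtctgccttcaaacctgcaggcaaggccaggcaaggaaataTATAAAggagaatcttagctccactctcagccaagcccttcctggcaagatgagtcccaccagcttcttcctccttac
Pate6, chr9:35790063-35790362, minus strand: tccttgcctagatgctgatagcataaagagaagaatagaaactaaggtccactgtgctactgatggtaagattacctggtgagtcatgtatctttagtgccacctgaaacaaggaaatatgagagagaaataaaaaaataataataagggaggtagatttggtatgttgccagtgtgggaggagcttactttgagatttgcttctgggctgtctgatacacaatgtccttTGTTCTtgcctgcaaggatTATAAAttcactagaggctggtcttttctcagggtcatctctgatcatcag
Abcg5, chr17:84682962-84683261, minus strand: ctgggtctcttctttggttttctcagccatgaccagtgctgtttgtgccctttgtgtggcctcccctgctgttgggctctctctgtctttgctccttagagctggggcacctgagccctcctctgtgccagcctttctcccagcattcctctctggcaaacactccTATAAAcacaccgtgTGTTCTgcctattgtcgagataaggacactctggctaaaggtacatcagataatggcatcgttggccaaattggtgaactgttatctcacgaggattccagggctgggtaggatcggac
Sgk1, chr10:21993640-21993939, plus strand: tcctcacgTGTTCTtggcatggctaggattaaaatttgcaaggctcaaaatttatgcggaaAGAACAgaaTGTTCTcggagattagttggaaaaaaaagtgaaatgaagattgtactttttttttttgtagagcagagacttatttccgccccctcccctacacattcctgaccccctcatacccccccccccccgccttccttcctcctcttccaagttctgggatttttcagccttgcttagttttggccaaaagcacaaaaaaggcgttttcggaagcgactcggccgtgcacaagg
The element with both arms, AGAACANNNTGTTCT, which contains AGAACA on each strand, was found in 3 of 32851 such promoters (0.00913%), and 1 of these is the Sgk1 promoter shown, where its first base is at -189 from the start. That start, 1 of 6 listed for Sgk1, was chosen for display because it holds the element, so its match was fixed by the choice. Of the 60 genes low on arrays 1 and 3, 47 matched the table, with 57 promoters. AGAACA was in 15 of the 57 (26.3%) and in 18.97% of all promoters. The TATA box was in 16 of the 57 (28.1%) and in 13.6% of all promoters. The estrogen response element GGTCANNNTGACC was in none of the 57 and in 0.0700% of all. A match is a description of letters and not of a bound site.

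Abcg5 and Abcg8 encode the partners of the sterol export pump of liver and intestine, and their genes lie head to head on chromosome 17, so that the 2 promoter windows share 209 bases. Abcg5 read 10.11, 10.20 and 10.00 on the vehicle arrays and 6.10, 9.29 and 5.14 on genistein arrays 1, 2 and 3. Abcg8 read 7.94, 7.87 and 7.68 on the vehicle arrays and 4.48, 6.98 and 4.37 on genistein arrays 1, 2 and 3, and was not detected on arrays 1 and 3. For both genes all genistein values lie under all vehicle values, with array 2 closest to the vehicle arrays. The differences were -3.26 (SE 0.73, limma adjusted p = 0.246) for Abcg5 and -2.55 (SE 0.50, limma adjusted p = 0.213) for Abcg8. Without array 2 that of Abcg5 was -4.49 (SE 0.23, adjusted p = 2.44e-06), and for Abcg8, not detected on the other genistein arrays, no size is given. In intact males Abcg5 read 5.94 ± 0.17 (SD, n = 3) with vehicle and 6.06 ± 0.09 (SD, n = 3) with genistein. Of 11 transporters and regulators of sterols and lipids, a list added after values were seen, 2 had genistein arrays all lower than vehicle, namely these 2 (18.2%, beside 9.49% of all genes), and 3 all higher (27.3%, beside 8.40% of all genes).

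Genes of epithelial defence and of the cell surface were also in the class, and 4 of them are given here. Cd52, which encodes a small surface glycoprotein of lymphocytes and of male genital tract epithelium, read 14.96, 14.90 and 14.84 on the vehicle arrays and 10.17, 14.21 and 9.83 on genistein arrays 1, 2 and 3. Arrays 1 and 3 were far below the vehicle arrays and array 2 slightly below. A second Cd52 probe was the 1 probe low by 1 log2 on all 3 arrays, at 5.26, 9.99 and 4.92 against 11.13 to 11.52. Of the other lymphocyte markers tested, Cd3e had a log2 difference of -0.30, Cd3g of -0.22, Cd3d of 0.08 and Cd79b of -0.65, and the summed linear intensity of the list, most of it Cd52, was 29660 to 32419 on the vehicle arrays, and 1497, 19344 and 1200 on genistein arrays 1, 2 and 3. Lcn2, a siderophore-binding lipocalin of innate defence, read 12.28, 12.49 and 12.07 on the vehicle arrays and 8.18, 12.13 and 8.19 on genistein arrays 1, 2 and 3. Array 2 was inside the vehicle range, and arrays 1 and 3 were close to each other. Pglyrp1, which binds bacterial peptidoglycan, had a difference of -2.46 (SE 0.71, limma adjusted p = 0.332), and -3.42 (SE 0.54, adjusted p = 0.0117) without array 2. Wfdc15b, of a protease inhibitor family, had -1.66 (SE 0.47, limma adjusted p = 0.302), and -2.31 (SE 0.33, adjusted p = 0.00656) without array 2. Both of its probes belonged to the class.

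The remaining genes of the class are of mixed function. Rprm, a gene of cell cycle arrest, read 10.68, 10.89 and 10.97 on the vehicle arrays and 5.58, 10.31 and 5.68 on genistein arrays 1, 2 and 3. Array 2 lay just below the vehicle arrays and arrays 1 and 3 lay together far below. The other genes named by rank were Galnt9, Best1, Il4i1 and Sgk1. They encode an enzyme that starts mucin-type glycans, a chloride channel, an amino acid oxidase and a kinase that responds to glucocorticoids and androgens. They were ranked by the fit without array 2, and an adjusted p under 0.05 there was a condition of the choice. Their differences in that fit were -3.66, -2.87, -3.44 and -1.89. In the fit of all arrays the differences were -2.58, -2.03, -2.39 and -1.42, with limma adjusted p of 0.246 to 0.287. Sgk1 read 13.55, 13.59 and 13.40 on the vehicle arrays and 11.46, 13.04 and 11.80 on genistein arrays 1, 2 and 3. Its brightness on arrays 1 and 3 remained well above background, unlike that of Abcg8 or Pate6. The epithelial transcription factor Elf5 had 3 probes in the class, and its brightest read 11.35, 11.41 and 11.14 on the vehicle arrays and 7.44, 10.79 and 8.53 on genistein arrays 1, 2 and 3. The fatty acid hydroxylase Cyp4a12a, the carboxylesterase Ces1e, the folate receptor Folr1, the leukotriene pathway gene Alox5ap and Olfm4, a secreted glycoprotein, had full-fit differences of -2.45, -2.01, -1.68, -1.58 and -1.37. Of the 83 probes, 77 passed the fit without array 2, beside 0.761% of all probes. The class was itself defined by low readings on arrays 1 and 3, so that count is no independent support. Of the 83, 21 were not detected on array 1, 15 were not detected on array 3, and 12 of these on neither.

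**Figure D2:**
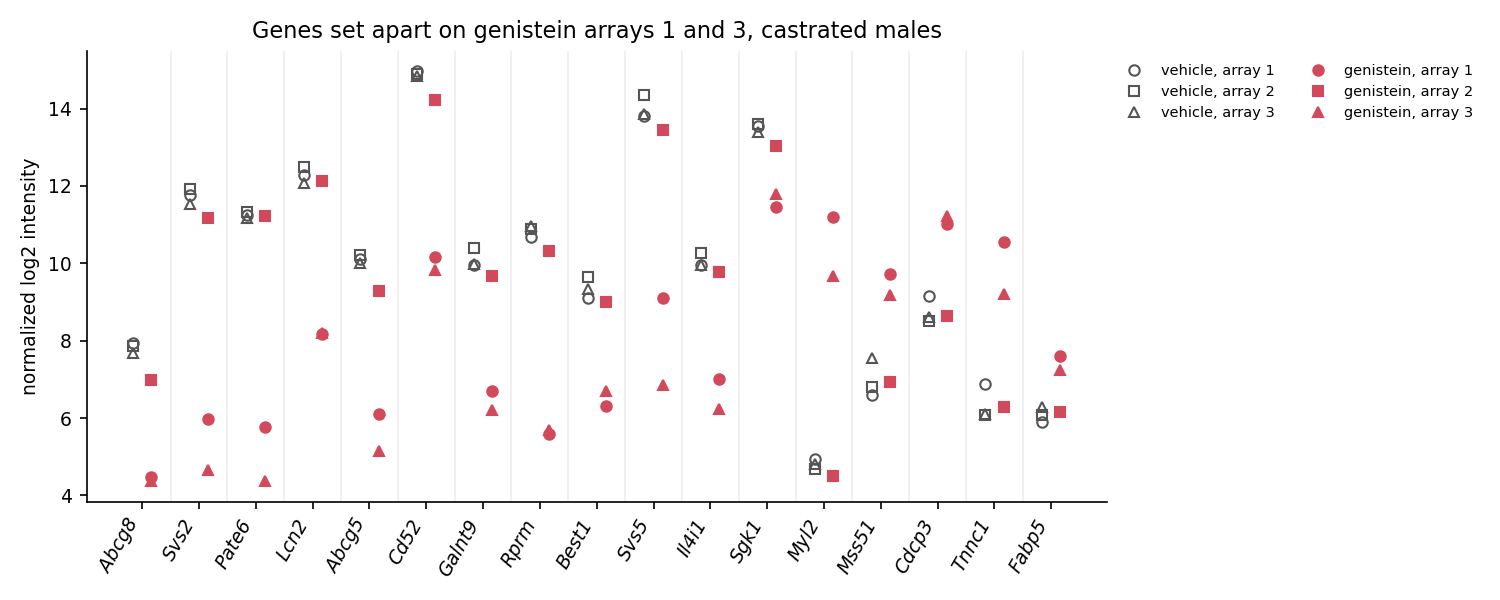
Normalized log2 intensity (vertical axis) of the 12 lower and 5 higher genes that ranked first in the fit without genistein array 2, with 1 point per castrated array. Open symbols are vehicle and filled symbols genistein. Genistein array 2 (filled square) is the genistein array nearest to the vehicle arrays in each gene shown, as in Pate6 at 11.22, and arrays 1 and 3 lie apart from them.

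Hox genes, which encode homeodomain factors that set position along the body axis, were among those low on arrays 1 and 3, and a list of all Hoxa, Hoxb, Hoxc and Hoxd genes was therefore drawn up after values were seen. Hoxb4 read 8.19, 8.37 and 8.08 on the vehicle arrays and 6.27, 7.34 and 6.66 on genistein arrays 1, 2 and 3, a difference of -1.46 (SE 0.23, limma adjusted p = 0.128). All 3 genistein arrays are below the vehicle arrays, and array 2 is nearest to them. Hoxb6 read 8.36, 8.68 and 8.47 on the vehicle arrays and 6.17, 8.12 and 6.59 on genistein arrays 1, 2 and 3, and Hoxd3 read 7.48, 7.69 and 7.37 on the vehicle arrays and 4.59, 7.32 and 5.63 on genistein arrays 1, 2 and 3. In both, arrays 1 and 3 are low and array 2 is just under the vehicle range. Of the 29 Hox genes tested, 9 had all genistein arrays below all vehicle arrays (31.0%, beside 9.49% of all genes with a symbol), namely Hoxb2, Hoxb4, Hoxb5, Hoxb6, Hoxb7, Hoxd3, Hoxd4, Hoxd8 and Hoxd9. Another 3 had all of them above, namely Hoxa5, Hoxc9 and Hoxc10 (10.3%, beside 8.40% of all genes). The lower ones lie in the HoxB cluster on chromosome 11 and the HoxD cluster on chromosome 2. Hoxa5 read 8.99, 8.37 and 9.0 on the vehicle arrays and 9.36, 9.13 and 9.53 on genistein arrays 1, 2 and 3, with arrays 1 and 3 highest. No Hox gene passed the fit of all arrays.

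Higher readings on arrays 1 and 3 were led by muscle genes. Myl2, the regulatory light chain of slow skeletal and cardiac myosin, read 4.93, 4.68 and 4.80 on the vehicle arrays and 11.21, 4.5 and 9.68 on genistein arrays 1, 2 and 3. Arrays 1 and 3 are far above the others. The probe was not detected on array 2 and was detected on 1 of the 3 vehicle arrays, so these 4 arrays are near background. The difference was 3.66 (SE 1.24, limma adjusted p = 0.383) and 5.63 (SE 0.59, adjusted p = 0.00069) without array 2. Tnnc1, troponin C of slow and cardiac muscle, read 6.89, 6.07 and 6.10 on the vehicle arrays and 10.55, 6.29 and 9.20 on genistein arrays 1, 2 and 3, with arrays 1 and 3 above the vehicle arrays and array 2 within their range. Of 5 probes of the tropomyosin gene Tpm3, 4 had differences of 1.02 to 2.21, and the brightest had -0.24, so the probes disagree in sign. In a list of slow muscle fibre genes added after values were seen, 9 of 11 lay above 0, and the list medians on arrays 1, 2 and 3 were 1.77, -0.07 and 0.69 against the vehicle mean. None had all genistein arrays above all vehicle arrays, and 2 had all below (18.2%, beside 9.49% of all genes), namely Tpm3 by its brightest probe and Myl3. Tnni1, Tnnt1 and Myoz2, with differences of 0.98, 0.84 and 1.05, were each highest on array 1, then on array 3.

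The general skeletal muscle list differed in the same direction by less: 12 of 12 markers lay above 0, with list medians of 0.61, 0.04 and 0.45 on arrays 1, 2 and 3 and a summed linear intensity of 158457 to 175593 on the vehicle arrays, and 245349, 171763 and 214008 on genistein arrays 1, 2 and 3. Of these 12 markers, 5 had all genistein arrays above all vehicle arrays (41.7%, beside 8.40% of all genes), and none had all below. The defining genes of the list were bright on every array, Acta1 at 14.18 to 14.89. Mss51, a mitochondrial protein gene of muscle, read 6.59, 6.79 and 7.54 on the vehicle arrays and 9.72, 6.94 and 9.17 on genistein arrays 1, 2 and 3, and Actn3, alpha-actinin of fast fibres, had a difference of 1.08 (SE 0.32, limma adjusted p = 0.345) by its brightest probe. The class also held Cdcp3, at 9.17, 8.52 and 8.60 on the vehicle arrays and 11.01, 8.63 and 11.23 on genistein arrays 1, 2 and 3. The fatty acid binding protein gene Fabp5, named by rank in the fit without array 2, read 5.91, 6.09 and 6.28 on the vehicle arrays and 7.61, 6.15 and 7.23 on genistein arrays 1, 2 and 3. In both, array 2 is inside the vehicle range and arrays 1 and 3 are above it, but Fabp5 passed the range by 1 log2 on array 1 only, so it is not in the class.

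What all 3 genistein arrays share was smaller in size. The groups did not overlap for 3793 probes (17%), 2049 lower (9.18%) and 1744 higher (7.81%), and in intact males for 2476 probes (11.1%). A gap of at least 0.5 log2 between the groups was found for 25 lower and 9 higher probes, and in intact males for 8 and 12. Cda, cytidine deaminase of pyrimidine salvage, read 5.88, 5.86 and 5.81 on the vehicle arrays and 4.75, 4.97 and 5.02 on genistein arrays 1, 2 and 3. The 3 genistein arrays all lie below the vehicle arrays. The probe was not detected on array 1, and arrays 2 and 3 read near background, so their closeness and order are not interpreted. The difference was -0.94 (SE 0.13, limma adjusted p = 0.103). Cpsf4l, related to a subunit of the polyadenylation complex, read 6.37, 6.32 and 6.39 on the vehicle arrays and 5.57, 5.53 and 5.15 on genistein arrays 1, 2 and 3, with array 2 as low as array 1, a difference of -0.94 (SE 0.14, limma adjusted p = 0.111).

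Other lower genes of this rank were Hpn, the epithelial serine protease hepsin, Pip5k1b, a phosphoinositide kinase, Man2a1, a mannosidase of Golgi glycan processing, Tyw3, of tRNA modification, Sp100, a nuclear body antigen, and Ugt1a1, which joins glucuronic acid to bilirubin and steroids. Hpn read 6.51, 6.76 and 6.77 on the vehicle arrays and 4.83, 5.67 and 4.35 on genistein arrays 1, 2 and 3, and its 3 kept probes had differences of -1.73, -1.27 and -0.22. The first 2 of these probes also belong to the class low on arrays 1 and 3 only, and were detected on array 2 but not on arrays 1 and 3. For Pip5k1b, Man2a1, Sp100 and Ugt1a1 the differences were -0.80, -1.05, -0.97 and -0.62. Tyw3 was not detected on any genistein array and was at least 1.12-fold lower. Man2a1 read 11.53, 11.62 and 11.42 on the vehicle arrays and 10.14, 10.84 and 10.42 on genistein arrays 1, 2 and 3, where array 1 is the lowest and array 2 the nearest to vehicle.

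Among genes higher on all 3 arrays, Cntn3, a contactin of neural cell adhesion, was detected on all genistein arrays and on no vehicle array, at least 1.61-fold higher (adjusted p = 0.103). Gm2897 was likewise at least 1.33-fold higher. The neurotensin receptor gene Ntsr2 read 4.45, 4.83 and 5.07 on the vehicle arrays and 5.83, 5.67 and 5.81 on genistein arrays 1, 2 and 3. All genistein values are above all vehicle values and lie close to each other. The probe was detected on all genistein arrays but on only 1 of the 3 vehicle arrays, so the vehicle values are near background. Gpx3, the secreted glutathione peroxidase, read 11.46, 11.64 and 11.48 on the vehicle arrays and 12.65, 11.99 and 12.56 on genistein arrays 1, 2 and 3, with array 2 the nearest to vehicle. The aldehyde dehydrogenase gene Aldh1a7 and the deubiquitinase gene Otud6b had differences of 0.80 and 0.75, the channel family gene Calhm5 of 0.80 and the kinesin-binding gene Kifbp of 0.54. Sdhd and Mlycd, 2 mitochondrial genes, complete the 10.

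**Figure D3:**
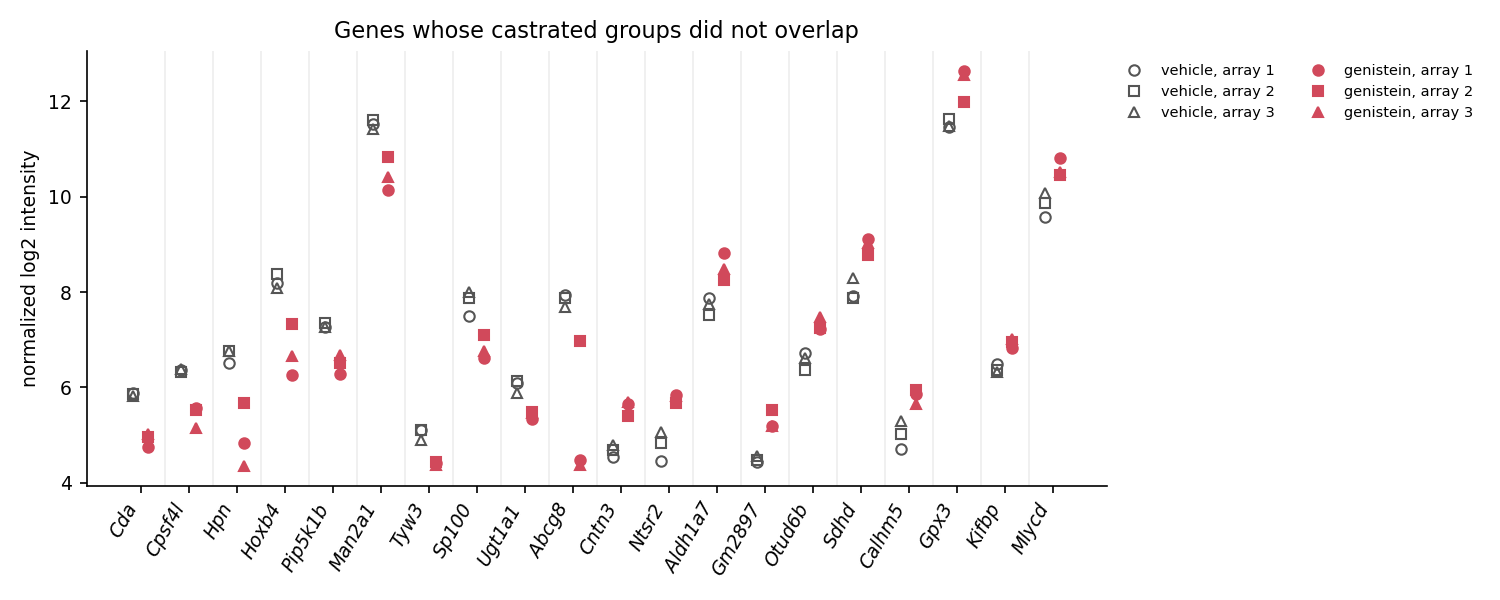
Normalized log2 intensity (vertical axis) of the 10 lower and 10 higher genes of lowest p among those whose castrated groups do not overlap, with 1 point per array. Open symbols are vehicle and filled symbols genistein. In Cda all 3 genistein arrays lie together below the vehicle arrays, while in Abcg8 array 2 lies far above arrays 1 and 3.

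Mitochondrial fatty acid oxidation breaks fatty acids down to acetyl-CoA and feeds electrons to the respiratory chain. After Mlycd and Sdhd had been seen, both pathways were listed. Of 28 fatty acid oxidation genes tested, 27 lay above 0 (96.4%, beside 49.7% of all genes), 14 had all genistein arrays above all vehicle arrays (50%, beside 8.40%), and none had all below. The median difference was 0.52, and on arrays 1, 2 and 3 it was 0.74, 0.39 and 0.37. No member passed the fit of all arrays. Malonyl-CoA decarboxylase, Mlycd, read 9.57, 9.86 and 10.07 on the vehicle arrays and 10.82, 10.45 and 10.52 on genistein arrays 1, 2 and 3, a difference of 0.76 (SE 0.17, limma adjusted p = 0.246). All genistein values are above all vehicle values, and array 2 is close to array 3. Decr1, which handles unsaturated fatty acids, read 8.28, 8.53 and 8.68 on the vehicle arrays and 9.76, 9.01 and 9.57 on genistein arrays 1, 2 and 3, with arrays 1 and 3 highest. Hadh, Ehhadh and Pex16, of beta-oxidation and peroxisome assembly, had differences of 0.84, 0.90 and 0.75. The carnitine palmitoyltransferase gene Cpt1b read 10.67, 10.54 and 11.15 on the vehicle arrays and 11.68, 11.36 and 11.26 on genistein arrays 1, 2 and 3, where the groups do not overlap but vehicle array 3 is close to the genistein arrays.

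In the respiratory chain list 33 of 35 genes lay above 0 and 14 had all genistein arrays higher (40.0%, beside 8.40% of all genes), with a median difference of 0.24. Sdhd, a membrane subunit of succinate dehydrogenase, read 7.91, 7.88 and 8.30 on the vehicle arrays and 9.11, 8.77 and 9.03 on genistein arrays 1, 2 and 3. Every genistein array is above every vehicle array. Sdhb, of the same complex, and Atp5a1, of the ATP synthase, had differences of 0.64 and 0.77. Ndufaf5, an assembly factor of complex I, had a probe at 5.91, 5.78 and 5.87 on the vehicle arrays and 7.23, 6.67 and 7.16 on genistein arrays 1, 2 and 3, with no overlap and array 2 nearest to vehicle. Its brighter probe read 8.63, 8.09 and 8.48 on the vehicle arrays and 9.17, 8.39 and 8.73 on genistein arrays 1, 2 and 3, where the groups overlap, with a difference of 0.36. In the fatty acid synthesis list 12 of 16 lay above 0 with a median of 0.42, and 5 had all genistein arrays higher (31.2%, beside the same 8.40%). Adipocyte markers and skeletal muscle markers were higher on arrays 1 and 3 as well, with adipocyte medians of 0.91, 0.00 and 0.60 on arrays 1, 2 and 3 and a summed linear intensity of 22380 to 28044 on the vehicle arrays, and 42081, 26022 and 37273 on genistein arrays 1, 2 and 3. On array 2 the median of the adipocyte list was 0.00 and that of skeletal muscle 0.04, while that of fatty acid oxidation was 0.39. All genistein arrays were above all vehicle arrays for 5 of 12 skeletal muscle genes (41.7%) and 1 of 9 adipocyte genes (11.1%). The part of these tissues in the result was not tested. Without genistein array 1, the array with the highest readings, the median of the fatty acid oxidation list was 0.37 and that of the respiratory chain list 0.17. With array 2 as the only genistein array they were 0.39 and 0.16.

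**Figure D4:**
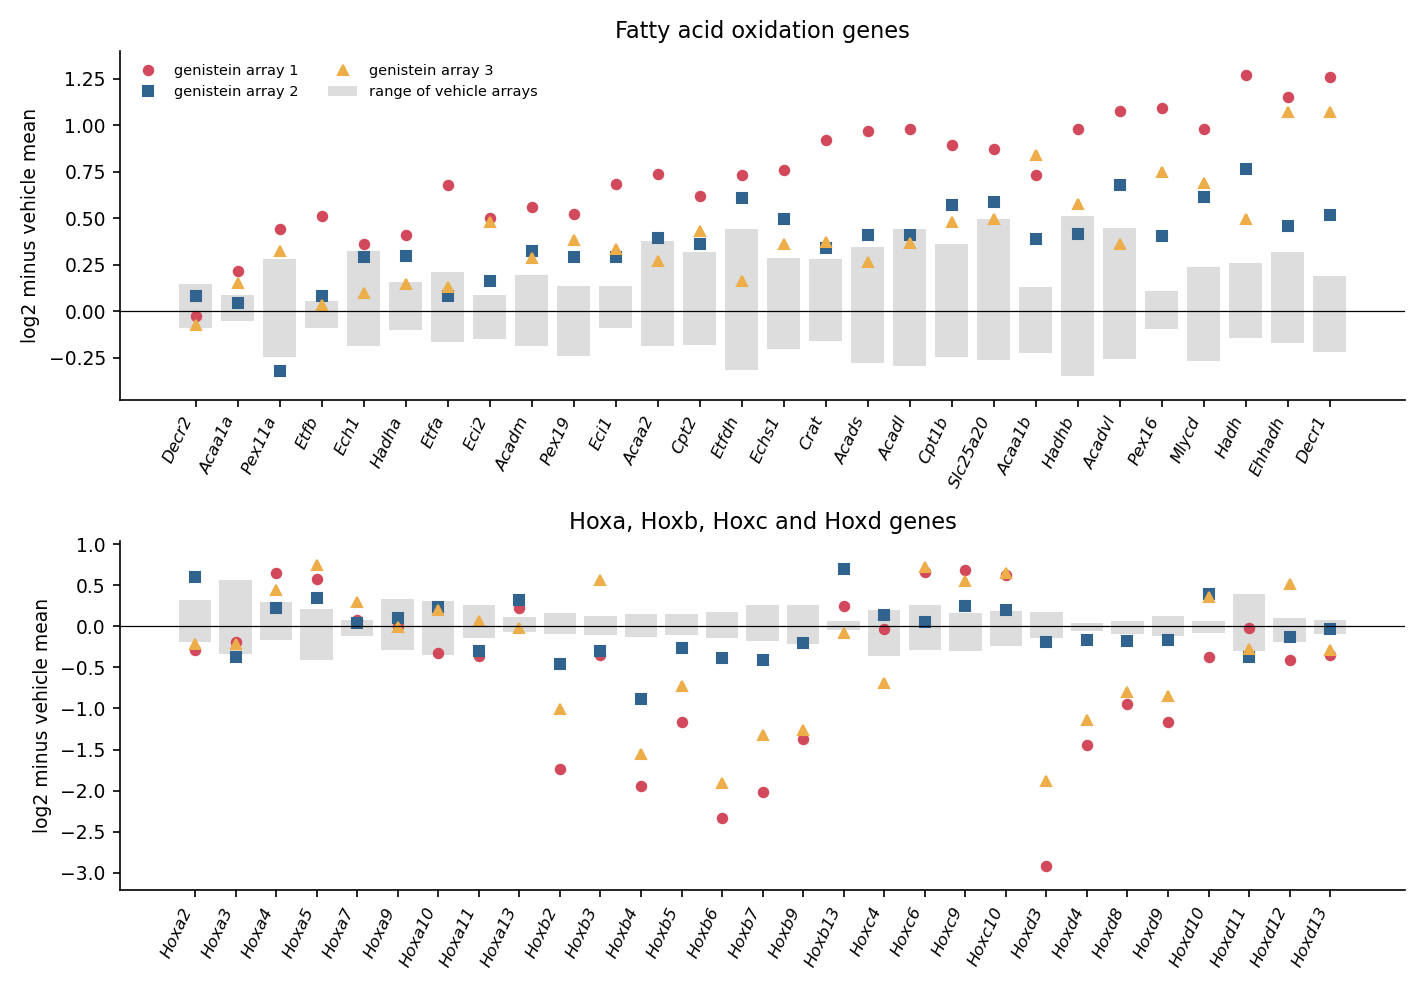
Log2 intensity minus the mean of the 3 vehicle arrays (vertical axis) for each fatty acid oxidation gene (top, ordered by difference) and each Hox gene (bottom), with 1 point per castrated genistein array. Grey bars span the 3 vehicle arrays. On array 2 the fatty acid oxidation genes have a median of 0.39, and 9 of the HoxB and HoxD genes lie over 1 log2 below the vehicle mean on array 1.

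Protein folding genes of the endoplasmic reticulum leaned lower on all 3 arrays. Of 20 tested, 4 lay above 0 and 8 had all genistein arrays below all vehicle arrays (40.0%, beside 9.49% of all genes), with list medians of -0.27, -0.09 and -0.26 on arrays 1, 2 and 3. Edem1, which directs misfolded glycoproteins to degradation, read 6.85, 7.22 and 7.03 on the vehicle arrays and 6.25, 6.45 and 6.14 on genistein arrays 1, 2 and 3. All genistein arrays are below the vehicle arrays, with array 2 the highest of the 3. Creld2 and Sdf2l1, both induced by unfolded proteins, had differences of -0.56 and -0.84. The chaperone gene Calr read 10.40, 10.44 and 10.40 on the vehicle arrays and 9.39, 10.56 and 9.65 on genistein arrays 1, 2 and 3, with array 2 above the vehicle range and the others below it. Among immediate early genes, which respond within minutes to stimuli, 3 of 17 lay above 0 (17.6%, beside 49.7% of all genes). All genistein arrays were below all vehicle arrays for 4 (23.5%, beside 9.49%). The list did not lean lower on array 3: its medians were -0.44, -0.23 and 0.00 on arrays 1, 2 and 3. On array 3, 9 of the 17 lay above the vehicle mean. Atf3 read 7.38, 7.24 and 7.49 on the vehicle arrays and 6.14, 6.59 and 6.27 on genistein arrays 1, 2 and 3. Its groups do not overlap, and its difference was -1.04 (SE 0.37, limma adjusted p = 0.403).

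In the hormone-related lists genes lay on both sides of 0. Of 21 androgen receptor targets tested, 11 lay above 0, and 1, Sgk1, had an unadjusted p under 0.05. Fkbp5 read 7.47, 8.14 and 7.58 on the vehicle arrays and 7.36, 7.44 and 8.01 on genistein arrays 1, 2 and 3, Pbsn had a difference of 0.37 (SE 0.31, limma adjusted p = 0.767), and the groups overlap in both. In intact males Fkbp5 read 11.32 ± 0.37 (SD, n = 3) with vehicle and 11.18 ± 0.39 (SD, n = 3) with genistein. Of 15 secretory proteins 5 lay above 0, and of 20 estrogen-responsive genes 9 did. The estrogen-responsive gene of lowest p was Lcn2, which lay below 0, at -2.78. The estrogen receptor genes Esr1 and Esr2 had differences of 0.40 (SE 0.25, limma adjusted p = 0.662) and -0.16 (SE 0.31, limma adjusted p = 0.918). The median over the genes was 0.01 for androgen receptor targets and -0.10 for estrogen-responsive genes. Of the cell markers, urothelial genes lay above 0 for 7 of 8, with the highest median on array 2 (0.24, 0.72 and 0.19 on arrays 1, 2 and 3). Luminal epithelial genes did for 4 of 12 and smooth muscle genes for 3 of 13. The lists of basal epithelial, fibroblast, endothelium, macrophage and peripheral nerve markers had medians of -0.04, -0.04, 0.02, -0.04 and 0.10. Those of steroid receptors and enzymes, isoflavone and xenobiotic metabolism, cholesterol synthesis, cell cycle, and apoptosis and regression had medians of 0.13, 0.01, 0.13, 0.12 and -0.04. No member of any list passed the fit of all arrays.

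**Figure D5:**
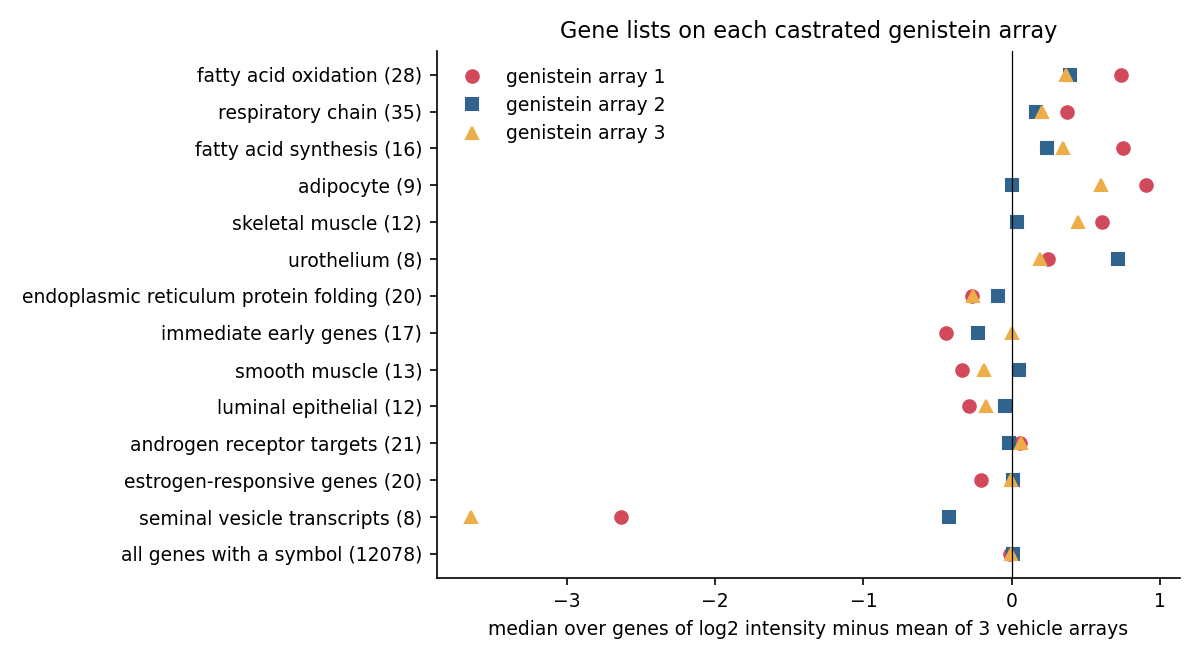
Median over the genes of a list of the log2 intensity minus the mean of the 3 vehicle arrays (horizontal axis), for each castrated genistein array, with the number of genes tested in brackets. The seminal vesicle list is far below 0 on arrays 1 and 3 and at -0.43 on array 2, while the fatty acid oxidation list is above 0 on all 3.

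Whether the genistein difference itself differed between castrated and intact males was tested in the same fit. No probe passed (limma, adjusted p), 1630 had an unadjusted p under 0.05, and the lowest adjusted p was 0.228, for Cpsf4l. The castrated minus intact difference was -1.47 (SE 0.20) for Cpsf4l and -2.03 (SE 0.33, adjusted p = 0.279) for Hoxb4. In intact males Hoxb4 read 5.93 ± 0.19 (SD, n = 3) with vehicle and 6.50 ± 0.26 (SD, n = 3) with genistein, so its vehicle level there was below that of castrated males. Without castrated genistein array 2 the count of probes passing this test was 95, 13 higher and 82 lower. The water channel gene Aqp8, for which genistein in intact males gave the lowest adjusted p of that contrast, read 4.67, 4.98 and 5.21 on the vehicle arrays and 5.43, 4.91 and 5.26 on genistein arrays 1, 2 and 3 in castrated males, where the groups overlap.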

How the data were processed

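Prostate RNA was measured as biotin-labelled cRNA on Illumina bead arrays. The authors deposited a non-normalized table of intensities with a detection p-value for each probe and array, per the file headers, and a separate table of processed values. The submitters' processing notes list BeadStudio, with a version not given in the sources used. Intensities were background-corrected from the detection p-values, offset by 16, quantile-normalized over the 12 arrays of the genistein experiment and put on the log2 scale (neqc in limma 3.58.1, R 4.3.3). Probes detected (p under 0.05) on at least 3 of 12 arrays were kept, 22332 of 45259, and 19004 of these carry 1 gene symbol, for 12078 genes. The number of arrays limits the precision, with 3 per group and 8 residual degrees of freedom.

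A linear model with 4 group means was fitted to all 12 arrays (lmFit and eBayes), p-values were adjusted by Benjamini-Hochberg over all kept probes, and the threshold was 0.05. The code was tested on simulated data. Levels are normalized log2 intensities, differences are genistein minus vehicle, and SE is that of the fit. A gene is shown by its brightest kept probe unless another is named, and levels of different genes are not compared. Where no array of a group detected a probe, the fold is a bound, written as at least, taken from the lowest signals detected on each array. Genes were named by rank: the 10 of lowest p in each direction whose groups do not overlap, the 12 lower and 5 higher genes of lowest p without genistein array 2 for which array 2 lies inside the vehicle range or within 1 log2 of it, and members of the lists. The 24 gene lists, another 6 added after values were seen, and the members were chosen with earlier results of these data known. Chip 1 holds all castrated arrays and chip 2 all intact arrays, so chip and castration cannot be told apart.

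Replicate numbers shared by vehicle and genistein were checked: the correlations of deviations from the group mean were -0.028, 0.078 and 0.019, so the numbers do not pair the samples. Alternatives were other normalization, background correction, filters, probe summaries, array weights, the replicate block and leaving out arrays. The arrays of the estradiol experiment were not used here.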

Additional observations from a re-analysis of the deposited data

Results flagged for a closer look

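In 13 of the 137 named genes vehicle and genistein arrays did not overlap in castrated males and also did not overlap in intact males, with opposite directions. Of the 22332 kept probes, 174 showed such opposite arrangements. Some named genes were chosen because their castrated groups do not overlap. That choice favours such arrangements among the named genes, so their share cannot be compared with that of all kept probes. The castrated minus intact difference was tested in limma, and none of the 13 passed, with adjusted p from 0.228 (Cpsf4l) to 0.616 (Sqle). Among genes low on castrated arrays 1 and 3, this difference was -4.99 for Svs2, -3.33 for Elf5, -3.28 for Cyp4a12a, -3.06 for Il4i1, -2.91 for Ces1e and -2.86 for Abcg8. Among Hox genes it was -2.03 for Hoxb4, -1.98 for Hoxb7, -1.54 for Hoxd8 and -1.36 for Hoxd9. It was -1.47 for Cpsf4l. Lgals7, a galectin of stratified epithelium, had 0.72 and Sqle, squalene epoxidase of sterol synthesis, had 0.55, both higher in castrated and lower in intact males.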

How the results depend on the processing

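The count of 0 probes passing in castrated males became 7 with array weights (Kcnj15, Ndufaf5, Hpn, Hoxb4, Cpsf4l, Cntn3 and Cda), 1 with no filter on detection (Kcnj15) and 9 with the authors' processed values. It stayed 0 under the other planned settings, and ranged from 0 to 170 when 1 castrated array was left out, where 170 is without genistein array 2. The replicate block gave 0 as well, with a lowest adjusted p of 0.310, and changed no call. The castrated minus intact count of 0 became 1 with the authors' values and ranged from 0 to 95 with 1 array left out: 95 without castrated genistein array 2, 3 without intact genistein array 1 and 1 without intact genistein array 2. A fit of the 6 castrated arrays alone cannot give this count. At 0.5 log2 in place of 1, a threshold tried after values were seen, 215 probes were low and 145 high on arrays 1 and 3 only, and 25 were low and 9 high on all 3. The 83 probes low on arrays 1 and 3 became 49 with no background correction and 87 to 95 with 1 vehicle array left out. The 16 high on arrays 1 and 3 became 9 with the brightest probe of each gene and 18 to 43 with 1 vehicle array left out, the most without vehicle array 3. The 1 probe low on all 3 became 0 with the brightest probe or the mean of a gene's probes, 5 with the authors' values and 1 to 3 with 1 vehicle array left out. The 0 probes high on all 3 became 1 with the authors' values and 0 to 18 with 1 vehicle array left out, the most without vehicle array 3. Over 137 named genes, 1613 of 1642 differences kept direction and side of the threshold under settings other than leaving out 1 array, 10 newly passed and 19 changed sign. With 1 array left out, 769 of 822 kept both, 46 newly passed and 7 changed sign. With array 2 as the only genistein array, which is assumed to vary like the other groups, the differences that changed sign were Acta1 -0.045, Akr1cl 0.044, Aqp8 -0.047, Calr 0.15, Cd3g 0.070, Cdcp3 -0.14, Folr1 0.0081, Hbb-b2 -0.071, Msmb -0.20, Mss51 -0.039, Myl2 -0.30, Myoz2 -0.056, Ndufaf5 -0.014, Sftpd 1.83, Thy1 0.18, Tnnc1 -0.066 and Tnnt1 -0.22. Sftpd also changed sign with no background correction (0.064) and Tpm3 with the mean of its probes (1.26). With 1 array left out, Akr1cl ranged -1.35 to 0.24, Fxyd4 -1.30 to 0.033, Sftpd -1.20 to 0.32, Esr2 -0.34 to 0.099, Fkbp5 -0.33 to 0.076 and Ceacam10 -0.49 to 0.12. The cause of these changes was not tested. With array 2 as the only genistein array, list medians were -0.43 for seminal vesicle transcripts, -0.066 for slow muscle fibre genes, 0.0028 for adipocyte markers and -0.092 for protein folding genes. Signals near background limit Abcg8, Pate6, Svs2, Myl2, Cda and Ntsr2, whose dim values have no order among themselves.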

Other observations

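Some genes stood apart on 1 genistein array of castrated males only, and these were chosen after their values were seen. On array 1 alone the epithelial transport genes Fxyd4, a regulator of the sodium pump, and Cdh16, a cadherin best known from kidney, were low. Fxyd4 read 9.37, 9.10 and 8.96 on the vehicle arrays and 6.64, 9.06 and 9.29 on genistein arrays 1, 2 and 3. Cdh16 had a difference of -0.91 (SE 0.64, limma adjusted p = 0.71), and Akr1cl, of the aldo-keto reductase family, one of -0.76 (SE 0.89, limma adjusted p = 0.844). In all 3 genes arrays 2 and 3 lay within or near the vehicle range.

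On array 2 alone the acute-phase gene Saa3 and the surfactant protein gene Sftpd, a collectin of mucosal defence, were high. Saa3 read 5.50, 5.77 and 6.43 on the vehicle arrays and 6.06, 9.20 and 6.84 on genistein arrays 1, 2 and 3. Sftpd read 5.94, 6.36 and 5.69 on the vehicle arrays and 4.81, 7.82 and 4.78 on genistein arrays 1, 2 and 3, with arrays 1 and 3 below the vehicle arrays. Mup2, of the major urinary proteins, read highest on array 3 by its brightest probe, at 10.61, 12.55 and 11.18 on the vehicle arrays and 11.88, 12.49 and 13.43 on genistein arrays 1, 2 and 3, and its other probes passed the range of the vehicle arrays by at least 1 log2 on that array alone. Among red blood cell markers Hbb-b2 had a difference of 0.61, and the list medians on arrays 1, 2 and 3 were 0.41, -0.14 and 1.21. Serpina5, a protease inhibitor gene of male accessory glands, read 6.66, 9.38 and 6.04 on the vehicle arrays and 4.94, 5.27 and 5.06 on genistein arrays 1, 2 and 3. There all genistein arrays are low and vehicle array 2 is far above the other vehicle arrays, as it is for Svs4 and Svs6.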
